A study of Rattus norvegicus with 18 samples.

Results

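The genes described here encode topoisomerase II alpha and 5 proteins of DNA replication and cell division. They were chosen by name and identifier and not by a rule on measured values, but with earlier results of these data known. They are Top2a (ENSRNOG00000053047), Mki67 (ENSRNOG00000028137), Cdk1 (ENSRNOG00000000632), Ccna2 (ENSRNOG00000015423), Ccnb1 (ENSRNOG00000058539) and Pcna (ENSRNOG00000021264). All 6 were present among the 32545 genes of the deposited table, and all 6 were among the 14732 genes that passed the filter on low values (at least 1 TPM in at least 6 libraries). RNA came from whole hearts of male Wistar rats that weighed about 250 g at the start, 6 animals in each of 3 groups. The DOX+AICAR group received doxorubicin, 3 mg/kg per week in 5 weekly intravenous injections, together with subcutaneous AICAR at 0.5 g/kg. The DOX+saline group received the same doxorubicin course with subcutaneous saline, and the saline group received intravenous saline on the same schedule. Doxorubicin is an anthracycline cancer drug that harms the heart, and AICAR is a nucleoside that cells convert into an activator of the energy sensor AMPK.

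Type II topoisomerases pass one DNA double strand through a transient break in another, which untangles chromosomes. Top2a encodes the form that dividing cells use, and doxorubicin traps the enzyme on broken DNA. Adult heart muscle cells rarely divide, so transcripts of cell division genes in heart tissue are usually scarce and are thought to come largely from other cells, such as fibroblasts, endothelial cells and leukocytes. Many cell division genes are held silent in resting cells and switched on together late in the cycle, in part through promoter elements known as the cell cycle genes homology region (CHR) and the CCAAT box.

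Upstream sequences were available for 5 of the 6 genes (RefSeq, build GRCr8, which is not the build Rnor_6.0 of the expression values). Those of Top2a and Cdk1 are shown as examples of genes whose levels moved together from animal to animal. That of Pcna is shown as the gene whose level differed least between animals. Mki67 and Ccnb1, whose windows are not printed, moved with Top2a as well. Each run holds the 250 bases before the annotated start of the gene, 5′ to 3′ on the gene's strand. Capitals mark TTTGAA, the CHR letters searched here, and CCAAT, each on either strand (TTCAAA and ATTGG). The Top2a window lies at chr10:84473094-84473343 on the minus strand, that of Cdk1 at chr20:19265043-19265292 on the plus strand and that of Pcna at chr3:139955821-139956070 on the minus strand.
Top2a: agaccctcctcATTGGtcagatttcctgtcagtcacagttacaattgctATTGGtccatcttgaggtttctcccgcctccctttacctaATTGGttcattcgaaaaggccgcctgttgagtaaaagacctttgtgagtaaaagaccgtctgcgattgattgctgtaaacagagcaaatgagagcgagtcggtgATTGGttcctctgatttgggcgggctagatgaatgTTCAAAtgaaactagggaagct
Cdk1: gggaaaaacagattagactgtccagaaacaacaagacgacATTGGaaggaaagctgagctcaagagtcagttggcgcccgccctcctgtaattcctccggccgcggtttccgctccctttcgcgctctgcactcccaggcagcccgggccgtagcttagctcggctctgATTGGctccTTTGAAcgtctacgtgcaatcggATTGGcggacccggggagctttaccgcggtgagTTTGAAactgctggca
Pcna: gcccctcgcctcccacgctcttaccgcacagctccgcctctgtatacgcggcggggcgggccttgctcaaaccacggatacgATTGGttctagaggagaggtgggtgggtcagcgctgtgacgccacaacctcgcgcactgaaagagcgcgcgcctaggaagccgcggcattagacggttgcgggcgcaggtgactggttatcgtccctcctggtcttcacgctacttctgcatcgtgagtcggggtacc

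The Top2a window held 4 CCAAT matches and 1 CHR match, which began 22 bases before the start (position -22). The Cdk1 window held 3 CCAAT and 2 CHR matches, at positions -72 and -16. The Mki67 window, not printed, held 4 CCAAT and 2 CHR matches, at positions -117 and -99, and the second of these CHR matches overlapped a CCAAT match. The Ccnb1 window held 2 CCAAT and 0 CHR matches, and the Pcna window 1 CCAAT and 0 CHR matches. Only TTTGAA was searched as CHR. The Ccnb1 window, not printed, holds TTTAAA, which differs from it in 1 letter and was not counted. Such near matches also occur in the printed windows, for instance TTCGAA in Top2a and CTCAAA in Pcna, and were not counted. Ccnb1 was also among the genes that moved with Top2a, and whether these letters bear on the levels was not tested. Of 33469 rat promoters of the same length, 16.2% held a CHR match, 34.0% at least 1 CCAAT match, 9.42% at least 2, and 1.59% a CHR match with at least 2 CCAAT. The letters GGGCGG on either strand, bound by the factor SP1, were found once each in Top2a, Cdk1, Ccnb1 and Pcna and 4 times in Mki67, against 30.5% of promoters with a match. The E2F letters TTTGGCGC and TTTCCCGC on either strand were found in 0 of the 5 windows and in 1.21% of all promoters. Other spellings were not searched. The Cdk1 window printed above holds TTTCGCGC, which differs from TTTCCCGC in 1 letter and was not counted. A match is a run of letters and not a measured binding site.

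Levels are given as TPM (transcripts per 1000000, in which each gene's reads are corrected for its length and each library has the same sum), so they can be compared between genes. Whole reads behind the TPM values were fitted for every gene above 0, as the smallest whole numbers in the ratios between libraries. By these reads, libraries held 20.57 to 31.32 M reads on genes (M, 1000000). Over all 18 libraries the 6 genes rested on 21 to 1842 reads per library. The lowest, 21 reads of Cdk1 in saline animal 51, correspond to 1.28 TPM with an exact Poisson 95% interval of 0.790 to 1.95 TPM, which covers counting error only. These are bulk samples, so a change in the number of dividing cells and a change in RNA per cell cannot be told apart.

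Top2a was scarce in saline hearts and more abundant, on average, after doxorubicin with or without AICAR. It had 6.39, 9.52, 11.97, 8.48, 13.96 and 7.02 TPM in DOX+AICAR animals 7 to 12. It had 9.36, 2.13, 18.2, 5.09, 3.12 and 9.20 TPM in DOX+saline animals 1 to 6. It had 1.33, 2.65, 4.405, 3.11, 2.39 and 4.44 TPM in saline animals 51 to 56. All 6 DOX+AICAR animals lay above all 6 saline animals, while DOX+saline animals 2 and 5 lay inside the saline range and animals 1, 3, 4 and 6 above it. The means were 9.56 ± 2.93 TPM in DOX+AICAR, 7.85 ± 5.89 TPM in DOX+saline and 3.05 ± 1.21 TPM in saline (SD, n = 6 each). Its mean level exceeded that of 35.3% of the genes tested in DOX+AICAR, 31.0% in DOX+saline and 20.3% in saline.

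Mki67 encodes the chromosome surfactant Ki-67, the common stain for cycling cells. It ranged from 6.72 to 12.7 TPM in DOX+AICAR (median 8.94), from 2.6001 to 12.4 TPM in DOX+saline (median 6.08) and from 1.198 to 4.13 TPM in saline (median 2.504). As for Top2a, no DOX+AICAR animal overlapped saline, and DOX+saline animals 2 and 5 lay within the saline range.

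The kinase of mitotic entry and its cyclin partners were likewise highest on average in DOX+AICAR and lowest in saline. Cdk1, the kinase, had 6.49 to 13.6 TPM in DOX+AICAR, 2.64 to 9.69 TPM in DOX+saline and 1.28 to 5.78 TPM in saline. Ccnb1, its mitotic cyclin B1, had 5.70 to 11.54 TPM in DOX+AICAR, 2.30 to 12.5 TPM in DOX+saline and 1.495 to 3.53 TPM in saline. Ccna2, cyclin A2 of S phase and G2, had 3.01 to 6.42 TPM in DOX+AICAR, 1.23 to 7.54 TPM in DOX+saline and 0.762 to 2.37 TPM in saline. For each of these 3 genes the lowest DOX+AICAR animal lay above the highest saline animal, and DOX+saline animals lay in both of these ranges. DOX+saline animals 2 and 5 lay inside the saline range for all 3 genes, and animal 4 for Cdk1 and Ccna2 but not for Ccnb1.

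Pcna encodes the sliding clamp that holds DNA polymerase on its template and also serves DNA repair. It was the most abundant of the 6 genes in every library. It had 71.8, 80.7, 83.1, 76.6, 83.3 and 67.9 TPM in DOX+AICAR animals 7 to 12. It had 85.3, 64.9, 90.9, 77.7, 72.4 and 78.7 TPM in DOX+saline animals 1 to 6. It had 56.8, 58.9, 65.0, 61.7, 54.8 and 55.2 TPM in saline animals 51 to 56. Again all DOX+AICAR animals lay above all saline animals, and among DOX+saline animals only animal 2 did not exceed the highest saline animal, by a margin well within counting error (its Poisson 95% interval was 61.0 to 68.9 TPM).

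**Figure D1:**
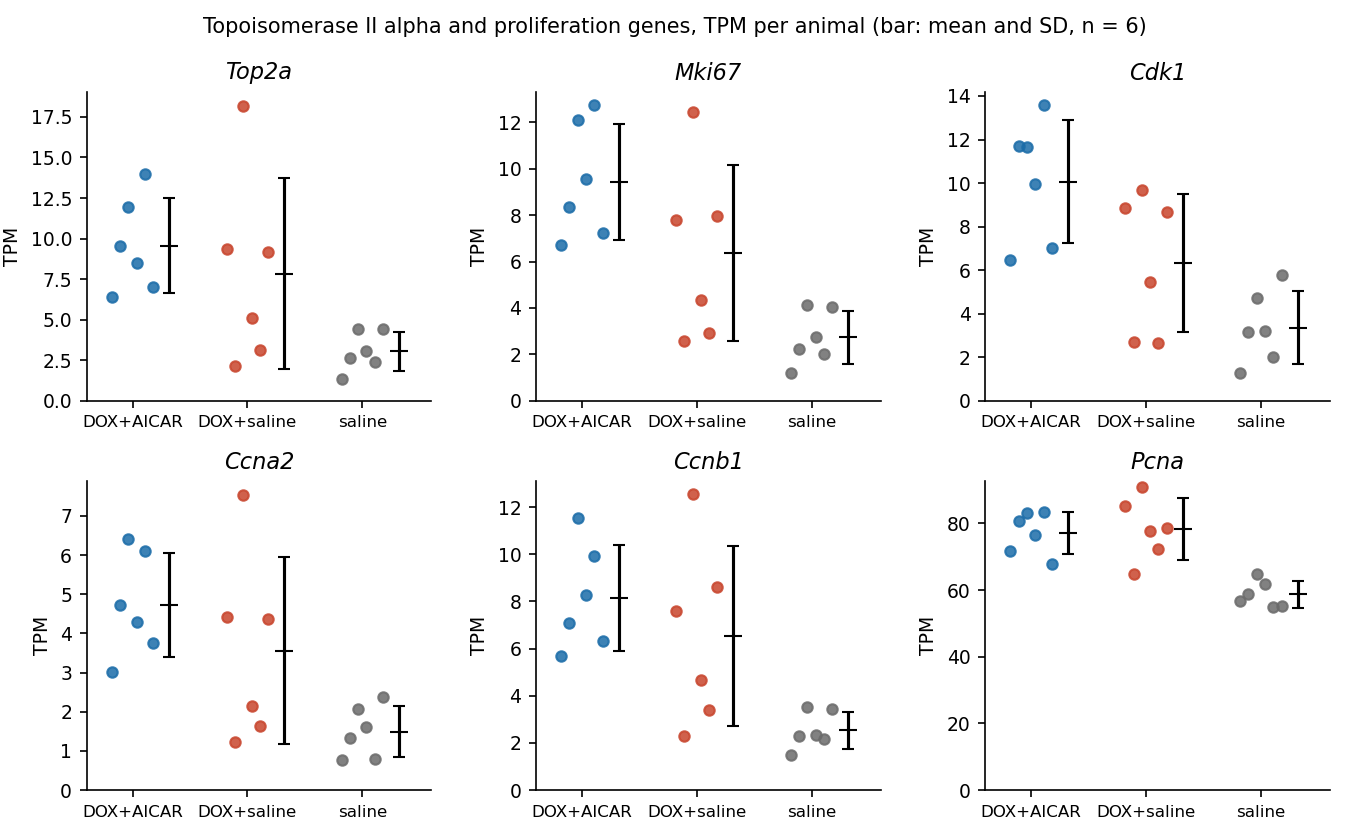
TPM of the 6 genes in each animal (y axis, TPM, from 0), with DOX+AICAR, DOX+saline and saline side by side. Points are animals and the bars beside them the mean and SD of 6. The DOX+AICAR points lie above all saline points in every panel, and the DOX+saline points stretch from inside the saline range to inside the DOX+AICAR range (Cdk1, Mki67) or above it (Top2a, Ccna2, Ccnb1, Pcna).

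The order of the levels was led by Pcna in all 18 libraries and closed by Ccna2 in the mean of each group. Between them, Top2a, Mki67, Cdk1 and Ccnb1 lay close together, at 8.15 to 10.1 TPM on average in DOX+AICAR, 6.34 to 7.85 TPM in DOX+saline and 2.54 to 3.36 TPM in saline. Several neighbours in that order did not differ beyond the spread between animals: Cdk1 exceeded Top2a in 3 of 6 DOX+AICAR animals (mean difference 0.504 ± 1.06 TPM, SD) and in 4 of 6 saline animals (0.304 ± 0.590 TPM, SD). Others kept their order in each animal, such as Top2a over Mki67 in 6 of 6 saline animals (0.325 ± 0.105 TPM, SD) and Mki67 over Ccnb1 in 6 of 6 DOX+AICAR animals (1.29 ± 0.770 TPM, SD). Ccna2 stayed near a fixed proportion of Top2a. The ratio of their TPM had a median of 0.501 in DOX+AICAR, 0.474 in DOX+saline and 0.508 in saline, and lay between 0.338 and 0.577 in all 18 libraries. The ratios of Ccnb1 and Mki67 to Top2a varied about as little, at 0.69 to 1.12 and 0.684 to 1.22 in the 18 libraries. That of Cdk1 varied more, at 0.533 to 1.3. The ratio of Pcna to Top2a did not stay fixed, with medians of 8.76 in DOX+AICAR, 12.2 in DOX+saline and 21.0 in saline.

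Relative to the mean, animals differed more within the DOX+saline group than within the others, though for Cdk1 hardly more than within saline. The coefficient of variation of Top2a was 30.6% in DOX+AICAR, 75.1% in DOX+saline and 39.6% in saline, and that of Pcna 8.21% in DOX+AICAR, 11.7% in DOX+saline and 6.78% in saline. The highest DOX+saline animal had 8.54 times the Top2a of the lowest and 5.44 times the Ccnb1. For Cdk1 this ratio was 3.66 in DOX+saline and 4.52 in saline, with coefficients of variation of 50.2% in DOX+saline and 49.8% in saline. The 164 reads of Top2a in DOX+saline animal 2 gave a Poisson 95% interval of 1.82 to 2.48 TPM, and 1443 reads in animal 3 one of 17.3 to 19.2 TPM. These 2 animals' libraries held 27.18 and 27.99 M reads.

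The same animals were high or low for gene after gene. DOX+saline animal 3 was the highest of its group for all 6 genes, and animal 2 the lowest for 5 of them, Cdk1 being lowest in animal 5. Saline animal 51 was the lowest of its group for Top2a, Mki67, Cdk1, Ccna2 and Ccnb1, and DOX+AICAR animal 7 was the lowest of its group for the same 5 genes. The summed TPM of these 5 genes ran from 28.3 to 56.3 in DOX+AICAR, from 10.99 to 60.4 in DOX+saline and from 6.07 to 20.03 in saline. Pcna followed this order less closely in saline hearts, where animal 56 had the highest sum of the 5 genes and ranked 5 of 6 for Pcna.

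**Figure D2:**
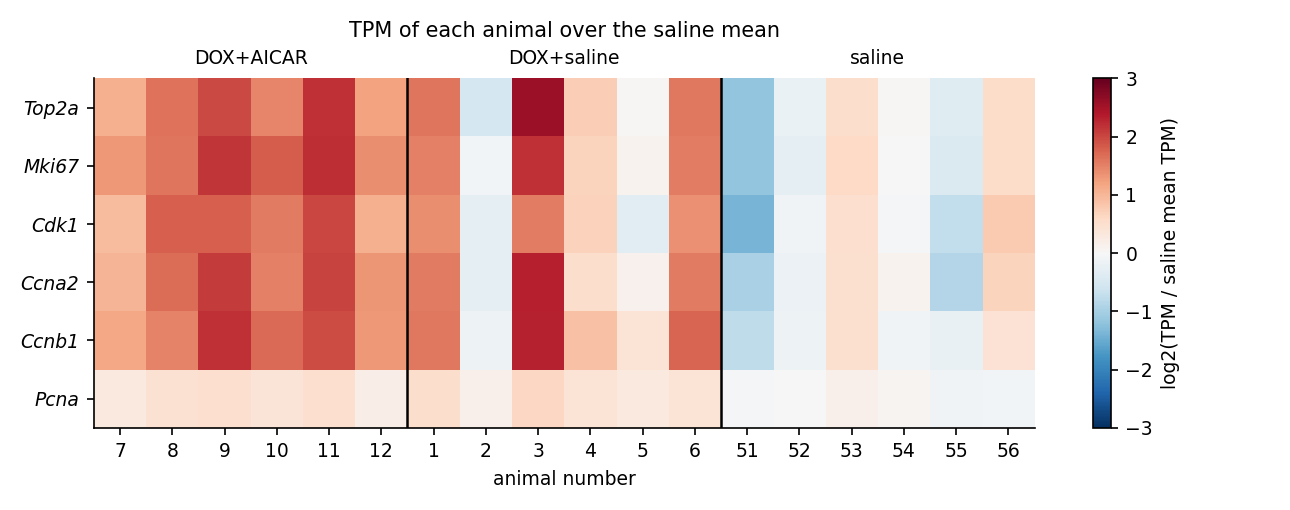
Each cell gives log2 of an animal's TPM over the mean TPM of the saline group, for 6 genes (rows) and 18 animals (columns, grouped as DOX+AICAR, DOX+saline and saline). Columns tend to have 1 colour from Top2a to Ccnb1: DOX+saline animal 3 is the darkest red of its group, animals 2 and 5 are near the saline mean, and the Pcna row is pale throughout.

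How closely the genes moved together from animal to animal was measured by the correlation of their deviations from the group means, on the scale log2(TPM + 1), over the 18 libraries. Taking out the group means removes the average differences between treatments from this measure. It is a description across libraries, each of which gave all the genes' values from the same RNA and the same fixed total, and no test was made. Against Top2a, Mki67 stood at 0.984, Ccna2 at 0.979, Ccnb1 at 0.978, Cdk1 at 0.926 and Pcna at 0.831. Among the 14731 other genes tested these were ranks 2, 5, 6, 52 and 176, and the median gene stood at 0.144. Spearman's rho with Top2a was 0.961 for Mki67, 0.948 for Cdk1 and Ccna2, 0.911 for Ccnb1 and 0.845 for Pcna. Without DOX+saline animals 2 and 3, which lay farthest out for Top2a, Mki67, Cdk1, Ccna2 and Ccnb1 stood at 0.956 to 0.985 and at ranks 1, 8, 10 and 12, with Pcna at 0.687 and rank 615. In 82 genes the likeness to Top2a exceeded 0.9. The gene with the highest value was ENSRNOG00000003388 (0.986), and the lowest was that of ENSRNOG00000053640 (-0.897), and the table gives no name for either identifier.

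**Figure D3:**
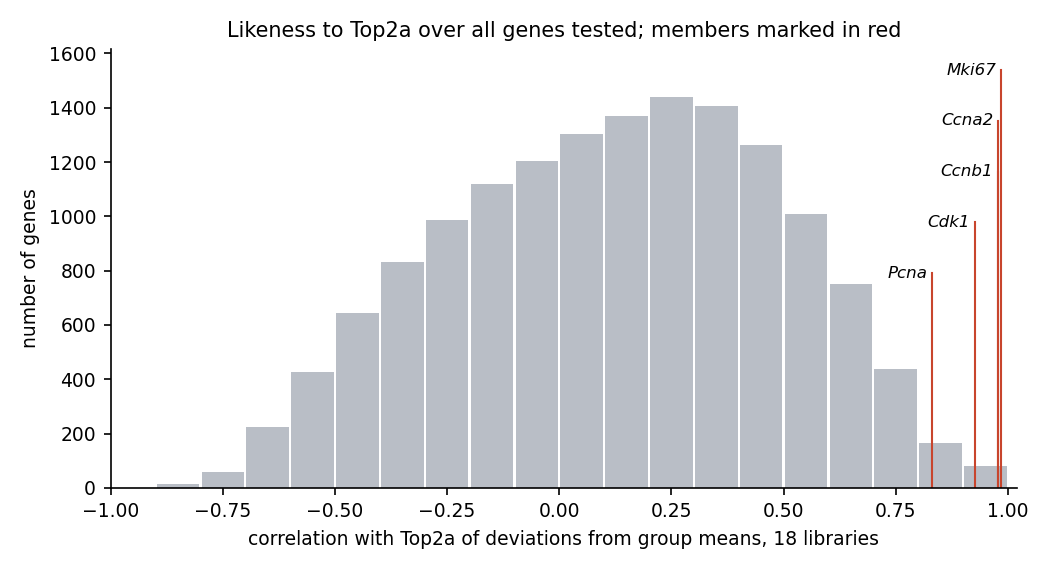
Number of genes (y axis) by the correlation of their deviations from the group means with those of Top2a over 18 libraries (x axis, no unit, bins of 0.1). Red lines mark Mki67, Ccna2, Ccnb1, Cdk1 and Pcna, all in the 2 highest bins, at 0.831 to 0.984.

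Doxorubicin alone was addressed by DOX+saline against saline, where 5 of the 6 genes were higher at a limma adjusted p below 0.05 and 0 were lower. Among all 14732 genes tested 38.0% were higher and 58.0% changed in either direction. Ccnb1 was higher by 0.95 on the log2(TPM + 1) scale (SE 0.28, limma adjusted p = 0.00718) and Mki67 by 0.88 (SE 0.29, limma adjusted p = 0.0166). Top2a was higher by 0.92 (SE 0.35, limma adjusted p = 0.0331), Ccna2 by 0.75 (SE 0.28, limma adjusted p = 0.0293) and Pcna by 0.40 (SE 0.07, limma adjusted p = 0.000154). Cdk1 differed by 0.71 with a 95% interval of 0.06 to 1.36 and did not pass (limma adjusted p = 0.0574). On the TPM themselves the means were 2.57 times the saline means for Top2a and Ccnb1, against 1.33 times for Pcna. In 0 of the 6 genes did all DOX+saline animals lie above all saline animals, against 21.1% of all genes tested.

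These calls were close to the threshold for Top2a and Ccna2. Two-sided exact permutation tests on the TPM gave an unadjusted p of 0.0563 for Top2a, 0.0390 for Mki67, 0.0736 for Cdk1, 0.0628 for Ccna2, 0.0238 for Ccnb1 and 0.00433 for Pcna. Without DOX+saline animal 3 the Top2a difference was 0.64 (limma adjusted p = 0.0868), and its call was also lost without DOX+saline animal 1 or 6 and without saline animal 51, 52 or 55 (limma adjusted p = 0.0543 to 0.0803). The Ccna2 call was lost without DOX+saline animal 1, 3 or 6 or saline animal 51 or 55 (limma adjusted p = 0.0651 to 0.0772), and that of Cdk1 was gained without DOX+saline animal 2 or 5 or saline animal 53 or 56. Mki67, Ccnb1 and Pcna kept their calls whichever animal was left out. The saline animals carry another series of numbers than the 12 doxorubicin animals, so a difference between cohorts cannot be told apart from the drug.

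Both drugs together were set against neither in DOX+AICAR against saline. All 6 genes were higher at a limma adjusted p below 0.05, against 34.8% of all genes higher and 53.3% changed in either direction. The log2(TPM + 1) difference was 1.51 for Mki67 (SE 0.29, limma adjusted p = 0.00035), 1.40 for Cdk1 (SE 0.31, limma adjusted p = 0.00103) and 1.39 for Top2a (SE 0.35, limma adjusted p = 0.00291). It was 1.36 for Ccnb1 (SE 0.28, limma adjusted p = 0.000529), 1.21 for Ccna2 (SE 0.28, limma adjusted p = 0.00158) and 0.39 for Pcna (SE 0.07, limma adjusted p = 0.000257). There was no overlap between these groups in any of the 6 genes, against 22.9% of all genes in which every DOX+AICAR animal lay above every saline animal. In each gene the exact permutation p on the TPM was 0.00216, the smallest that 6 against 6 animals allow. All 6 calls held in each of the 28 alternatives run. This comparison and that of DOX+saline use the same saline animals, so their values stand side by side only.

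The addition of AICAR was tested between the DOX+AICAR and DOX+saline animals. Here 0 of the 6 genes were called by limma, against 1.33% of all genes in either direction and 0.577% higher. Voom on the recovered reads also called 0 of the 6. Before adjustment, limma put 2 of the 6, Cdk1 and Mki67, below 0.05, against 2590 of all 14732 genes tested. The estimates were above 0 for 5 genes, and their intervals were wide. Cdk1 differed by 0.69 on the log2(TPM + 1) scale (95% interval 0.03 to 1.34, limma adjusted p = 0.259) and Mki67 by 0.63 (0.01 to 1.25, limma adjusted p = 0.272). Top2a differed by 0.47 (-0.27 to 1.22, limma adjusted p = 0.511), Ccna2 by 0.45 (-0.14 to 1.05, limma adjusted p = 0.416) and Ccnb1 by 0.41 (-0.18 to 0.99, limma adjusted p = 0.466). Pcna differed by -0.02 (-0.17 to 0.14, limma adjusted p = 0.938), the narrowest interval of the 6. For Top2a, a difference of 1 on this scale and no difference both lie inside the interval.

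The ranges of both groups overlapped in each of the 6 genes. The share of all genes that overlap in this comparison is not given here, so the overlap is a description only. For Cdk1, 4 of 6 DOX+AICAR animals lay above the highest DOX+saline animal, for Mki67 it was 1 and for the other 4 genes 0. No DOX+AICAR animal lay below the lowest DOX+saline animal in any of the 6 genes. Exact permutation tests on the TPM gave an unadjusted p of 0.0628 for Cdk1, 0.134 for Mki67 and 0.310 to 0.816 for the others.

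**Figure D4:**
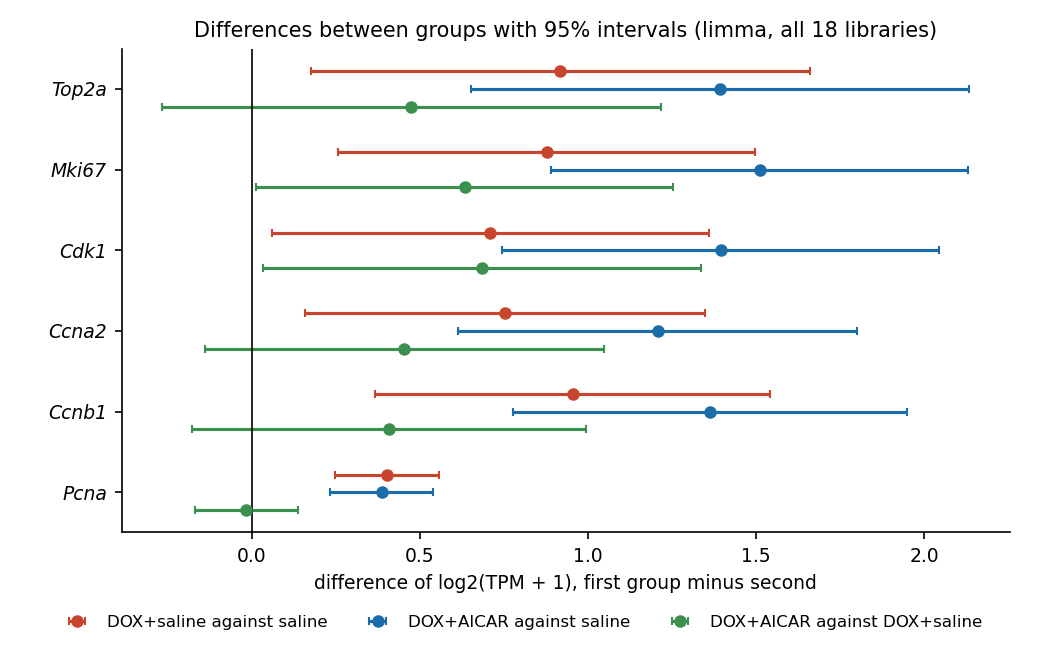
Difference of log2(TPM + 1), first group minus second, for 6 genes and 3 comparisons (colours), with 95% intervals from the limma fit of all 18 libraries. Every interval of both comparisons with saline lies above 0 before adjustment, and those of DOX+AICAR against DOX+saline hold 0 for Top2a, Ccna2, Ccnb1 and Pcna and begin at 0.03 for Cdk1 and 0.01 for Mki67.

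As a list, the 6 genes had a median log2(TPM + 1) difference of 0.82 in DOX+saline against saline, 1.38 in DOX+AICAR against saline and 0.46 in DOX+AICAR against DOX+saline. The medians of all genes tested were 0.10, 0.09 and -0.0021 in the same comparisons. Scaling moved the differences from saline down. Median-of-ratios factors shifted the median of all genes by -0.11 and quantile normalization by -0.16 in DOX+saline against saline. The same shifts were -0.10 and -0.15 in DOX+AICAR against saline, and 0.0079 and 0.0102, upward, in DOX+AICAR against DOX+saline. Quantile normalization did not move the 6 genes equally. In DOX+saline against saline it gave 0.61 for Top2a and 0.39 for Ccna2, against 0.92 and 0.75 on the values as deposited, and 0.36 for Pcna, against 0.40. The share of all calls that were higher also depended on the scaling, at 65.5% as deposited, 48.0% after median-of-ratios scaling and 41.0% after quantile normalization for DOX+saline against saline, and 65.4%, 47.4% and 40.5% for DOX+AICAR against saline. In DOX+saline against saline, median-of-ratios scaling left 5 of the 6 genes called higher, against 4061 of all 14732 genes tested. Quantile normalization left 2 of 6 called higher, Ccnb1 (0.63) and Pcna (0.36), against 3424 of 14732. In DOX+AICAR against saline all 6 were called higher under both. Of all 14732 genes, 3750 were called higher there with the first scaling and 3207 with the second. Levels of marker genes of muscle cells, leukocytes, endothelial cells or fibroblasts were not analysed here, because identifiers other than those of the 6 genes are not paired with names, and their part in these differences was not tested.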

How the data were processed

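The deposited file holds TPM values per gene, which the authors computed, and each of the 18 libraries (1 per animal) sums to 1000000. Tools named in the submitters' processing notes are bcl2fastq 2.17.1.14, HISAT2, and featureCounts of Subread 1.5.0, with the genome build Rnor_6.0. Neither the annotation release nor the strand setting is given in the sources used here. Per the labels' protocols, libraries were strand-specific, paired-end and made from polyadenylated RNA. Because the total is fixed, a difference is one of share. The table does not pair identifiers with names, and the reference table (GRCr8) matched 0 of 32545. The names of the 6 genes came with the definition of the set, and the planned lists of other genes were therefore not analysed.

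The genes and gene lists were chosen with earlier results of these data known. Genes that reached 1 TPM in 6 or more libraries were fitted with limma 3.58.1 in R 4.3.3 on log2(TPM + 1), with a mean per group, all 18 libraries sharing 1 estimate of spread, and Benjamini-Hochberg adjustment over 14732 genes. Calls were made below an adjusted p of 0.05. The log2(TPM + 1) scale understates changes of low genes. Spread is assumed equal between groups, although DOX+saline animals differed more among themselves. Two-sided exact permutation tests used all 924 assignments, 18 tests in all, unadjusted. Intervals are at 95%. Whole reads were fitted to the TPM ratios between libraries, with a tolerance of 0.001 reads, for all 25878 genes above 0. They are the smallest whole numbers in those ratios, so genes seen in few libraries may be understated. Both steps were tested on simulated data, the recovery of reads only for genes above 0 in 6 or more libraries, of which these data hold 20828. The rule for likeness was the correlation of deviations from group means. Alternatives covered pseudocounts, filters, scaling, weights, voom and leaving out each animal, 28 in all.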

Additional observations from a re-analysis of the deposited data

How the results depend on the processing

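No paired analysis was possible because the animal numbers of the 3 groups do not overlap. For DOX+saline against saline, 5 of the 6 genes were called, against 8538 of all 14732 genes tested. With quantile normalization 2 of the 6 were called, against 8343 of 14732. With only the 12 libraries compared it was 3 of the 6, against 8015 of 14186. When 1 animal was left out, 3 to 6 were called, against 7902 to 8710 of all genes tested. The Top2a call was also lost with no filter (limma adjusted p = 0.0530), with voom on recovered reads (0.0598), after quantile normalization (0.130) and in the fit of only the 12 libraries compared (0.0610). Ccna2 was lost after quantile normalization and in the 12-library fit, and Mki67 after quantile normalization. Cdk1 was gained with array weights. The cause of these losses and gains was not tested. For DOX+AICAR against saline all 6 genes were called, and for DOX+AICAR against DOX+saline 0, in each of the 28 alternatives. The number of all genes called for DOX+AICAR against saline was 7850, and 7275 to 9008 in the alternatives. The number of all genes called for DOX+AICAR against DOX+saline, 196, was 121 with the lower filter of 0.1 TPM and pseudocount of 0.1, 321 with quantile normalization, 1058 with array weights, 16 with only the 12 libraries compared, and 36 to 461 when 1 animal was left out. The small Pcna difference there, -0.02, lay between -0.0676 and 0.0283 when 1 animal was left out. No other gene changed direction in any alternative. Depth limits the low genes most, at 21 reads of Cdk1 and of Ccna2 in saline animal 51.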
